A study of Rattus norvegicus with 6 samples.

Results

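Hyaluronan is a long sugar polymer of the extracellular matrix, and 10 genes of its synthesis, binding and breakdown were followed in cultured rat vascular smooth muscle cells (VSMCs), which contract the vessel and make much of its matrix. The genes were taken by symbol from the deposited tables: the synthases Has1 and Has2, the breakdown genes Cemip, Cemip2, Hyal1 and Hyal2, the receptor Cd44, and the binding proteins Vcan, Tnfaip6 and Ptx3. All 10 were among the 18631 genes listed, and all 10 passed the filter on low counts, which left 13423 genes. The list was drawn up with the difference between knockdown and control in these same libraries already known, Cemip among the larger falls. Differences of these 10 genes between the groups are therefore given as a description, without p-values. Where a fit over all genes called some of the 10, this is listed beside the share of all genes, and nothing is read from it.

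Polyadenylated RNA was sequenced in 6 libraries, 3 of vascular smooth muscle cells labelled with a MIAT knockdown genotype and 3 titled Scr with a wild-type genotype, called Scr control here. MIAT is a long noncoding RNA. The labels give small interfering RNAs and antisense oligonucleotides, 50 nM in all, for 72 h against MIAT. This text stands on every library, so what the control cells received is not stated, and neither are the vessel, the strain, the passage, or whether the libraries of a group came from separate cultures. If they did not, the spread between them is technical. Miat itself was not analysed here. How far it was reduced is therefore not known, and group names follow the labels.

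Hyaluronan is made at the plasma membrane by the hyaluronan synthases, which join UDP-glucuronic acid and UDP-N-acetylglucosamine and extrude the growing chain from the cell. Outside the cell, the chain is held by the receptor CD44, by versican and by proteins such as TSG-6 (the product of Tnfaip6) and pentraxin 3. It is cut by CEMIP, CEMIP2 and the hyaluronidases. In injured vessels, smooth muscle cells that migrate and divide lie in a matrix rich in hyaluronan and versican.

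Total counts ranged from 17793811 to 20121161 per library. Control library 3 lay farthest from the rest on the leading principal component, at 47.0 against -32.7 to 20.1 for the other 5, and values without it are given where they matter. Same-numbered knockdown and control libraries deviated together, so each difference is also given by pair. The 6 smooth muscle markers summed to 4306 to 6174 FPKM (counts scaled by gene length and library total) in knockdown and 4638 to 5775 FPKM in control libraries. Endothelial markers summed to 0.430 to 1.62 FPKM over all libraries. The 6 fibroblast and adventitial markers, mostly Lum and Pdgfra, summed to at most 261 FPKM in any knockdown library and to at least 286 FPKM in any control library. Their part in the results was not tested.

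The promoters of Cemip, Vcan and Tnfaip6 are shown because Cemip and Vcan were the most clearly lower genes of the list and Tnfaip6 is a binding protein whose groups overlapped. Each run holds the 250 bases upstream of a RefSeq start on the GRCr8 assembly, 5′ to 3′ on the gene's strand, and capitals mark the motif matches. The windows are chr1:147471484-147471733 (minus strand) for Cemip, chr2:22595956-22596205 (minus strand) for Vcan and chr3:56911148-56911397 (plus strand) for Tnfaip6. The authors' build is not given in the sources used here, so these positions belong to RefSeq and not to the counts.
Cemip: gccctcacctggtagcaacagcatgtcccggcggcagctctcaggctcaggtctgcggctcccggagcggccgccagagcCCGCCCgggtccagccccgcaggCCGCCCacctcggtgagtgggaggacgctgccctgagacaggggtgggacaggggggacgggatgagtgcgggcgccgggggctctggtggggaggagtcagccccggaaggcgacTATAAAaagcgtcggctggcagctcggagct
Vcan: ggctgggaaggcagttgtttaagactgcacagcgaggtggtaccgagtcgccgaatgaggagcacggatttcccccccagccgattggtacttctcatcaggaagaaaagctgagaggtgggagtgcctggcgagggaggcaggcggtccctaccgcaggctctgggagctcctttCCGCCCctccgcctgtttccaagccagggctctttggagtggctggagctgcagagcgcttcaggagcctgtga
Tnfaip6: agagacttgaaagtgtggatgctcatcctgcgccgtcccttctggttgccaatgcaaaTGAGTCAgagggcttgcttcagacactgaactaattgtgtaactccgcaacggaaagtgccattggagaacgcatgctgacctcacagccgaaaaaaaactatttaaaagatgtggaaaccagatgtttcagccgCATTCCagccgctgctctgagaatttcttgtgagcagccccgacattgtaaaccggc

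These letters were searched on both strands for 5 motifs, and no matches overlapped. TATAAA is the core of many basal promoters. GGGCGG is bound by SP1 and TGANTCA by AP-1. GGAATG is bound by TEAD factors, and the CArG box by serum response factor. The Cemip window held TATAAA on the gene's strand, beginning 31 bases before the start, and GGGCGG at 2 places on the other strand. Vcan held GGGCGG once and no TATAAA, and Tnfaip6 held TGANTCA and GGAATG once each. A TATAAA stood in 12.9% of the 33469 windows of the same length, GGGCGG in 30.5%, TGANTCA in 6.34%, GGAATG in 12.1% and a CArG box in 1.50%. Of the 10 genes, 8 had an entry in the promoter table, and among those 8 GGGCGG was found in 4, GGAATG in 2, TATAAA in 1, TGANTCA in 1 and a CArG box in 0. A match describes letters only, and the data hold no measurement of binding. The annotated Cemip gene reaches 69 bases farther upstream than the start used, so other starts exist. Vcan has a further RefSeq start 98 bases downstream of the one used, and its GGGCGG lies 172 bases upstream of that start.

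Levels per gene length differed widely within the list. Vcan, the large chondroitin sulfate proteoglycan versican, and Ptx3 stood highest in the control libraries, at 194 ± 15.7 and 192 ± 27.0 FPKM (SD, n = 3), and their ranges overlapped. Cd44 followed at 117 ± 40.3 FPKM and Tnfaip6 at 76.9 ± 17.8 FPKM, also overlapping. Has2 was at 25.4 ± 9.01, Cemip at 21.3 ± 9.78 and Hyal2 at 17.9 ± 1.16 FPKM, and neighbours in this order overlapped. Cemip2 at 4.68 ± 0.838 and Hyal1 at 4.52 ± 0.917 FPKM could not be placed apart. Has1 came last at 0.949 ± 0.339 FPKM, below every other gene of the list in each control library. By the means of the knockdown libraries the order changed in places, with Ptx3 above Vcan and Hyal2 above Cemip. The ranges of Ptx3 and Vcan overlapped there too, and Ptx3 was below Vcan in library 2 of both groups. In the knockdown libraries Hyal2 at 18.0 to 24.0 FPKM and Cemip at 5.96 to 11.8 FPKM did not overlap, whereas they did in the control libraries.

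**Figure D1:**
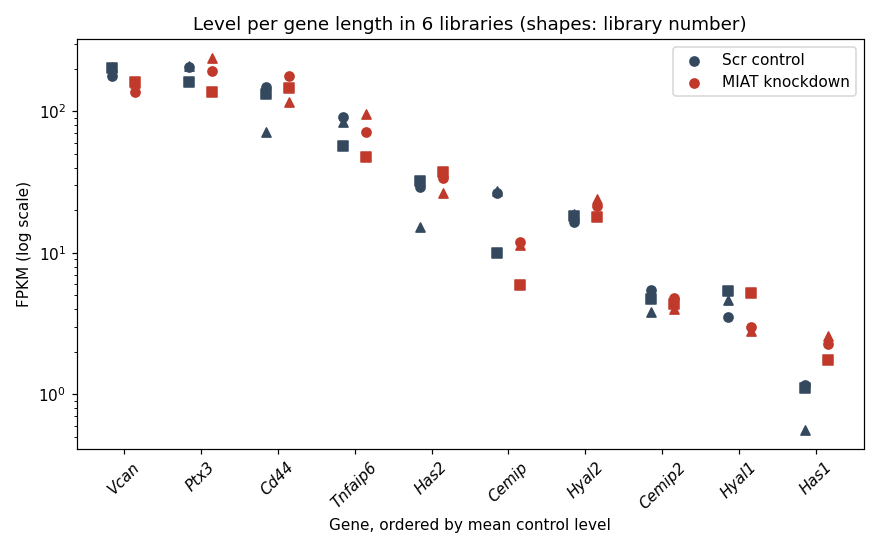
FPKM of the 10 hyaluronan genes on a log axis, ordered by the mean of the control libraries, with each of the 3 Scr control and 3 MIAT knockdown libraries as a point and the library number as its shape. Vcan and Ptx3 lie at the top with control means of 194 and 192 FPKM and Has1 lies at the bottom with a control mean of 0.949 FPKM.

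Of the synthase genes, only Has1 separated the groups, with a higher but low level in the libraries labelled MIAT knockdown, while Has2 and Has3 overlapped. In bulk RNA, fewer cells that express a gene and less of its RNA per cell cannot be told apart. Has1, which encodes a synthase, was at 5.36, 4.29 and 6.18 CPM (counts relative to the library's TMM-normalized total) in knockdown libraries 1 to 3 and at 2.95, 2.86 and 1.50 CPM in control libraries 1 to 3. Every knockdown library lay above every control library, although the counts behind these values were only 28 to 119 per library. Its level was 2.17-fold higher, a log2 fold change of 1.12 ± 0.31 (SE), and 0.84, 0.57 and 1.97 by pair, so pair 3 differed most. Without control library 3 the log2 fold change was 0.86, and with the block it was 1.13, or 0.72 without pair 3.

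Has2 carried nearly all synthase RNA, with 90.9% to 96.4% of the summed FPKM of Has1, Has2 and Has3 in each library. The Has2 product is the main synthase of vascular and embryonic tissue. It stood at 134, 152 and 107 CPM in knockdown and at 123, 138 and 68.1 CPM in control libraries, with control library 3 low and the groups overlapping. The log2 fold change was 0.26 ± 0.26 (SE), and 0.13, 0.15 and 0.65 by pair. It was 0.14 without knockdown library 2 and 0.0090 without control library 3, so the size of this difference rested most on the latter. Has3, the other synthase gene, was near the limit of detection with 6 to 25 counts per library, and lower in 2 of 3 pairs. As a share of Has2, Has1 had 4.72% to 9.68% of its FPKM in the knockdown group and 3.49% to 4.02% in the control group, again without overlap. The span of Has2 overlaps that of a long noncoding gene in RefSeq, and with no strand setting given its reads may be shared.

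Among the breakdown genes, Cemip stood out by the size of its difference. It encodes a secreted hyaluronan-binding protein, also called KIAA1199, needed for hyaluronan breakdown by skin and synovial fibroblasts. Cemip was at 115, 60.3 and 112 CPM in knockdown libraries 1 to 3 and at 275, 106 and 303 CPM in control libraries 1 to 3. The number 2 libraries were the lowest of both groups, and the only overlap was control library 2, which lay below knockdown libraries 1 and 3. Its level was 2.38-fold lower, a log2 fold change of -1.25 ± 0.42 (SE). By pair it was -1.25, -0.82 and -1.43, lower in 3 of 3. With the replicate number as a block, the log2 fold change was -1.18 ± 0.10 (SE). Leaving out a library or a pair gave log2 fold changes of -1.60 to -0.996, the smallest without control library 3.

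Cemip2, formerly Tmem2, encodes a related transmembrane protein with hyaluronan-degrading activity at the cell surface. Its values of 84.0, 79.0 and 71.6 CPM in knockdown and 103, 91.3 and 76.4 CPM in control libraries overlapped. The log2 fold change was -0.21 ± 0.12 (SE), and -0.29, -0.21 and -0.09 by pair. It was -0.104 without control library 1, -0.31 without control library 3 and -0.102 with total count scaling. By FPKM pair 3 went the other way, at 3.98 in knockdown and 3.80 in control. The span of Cemip2 overlaps that of a pseudogene, Eif4a1-ps7, in RefSeq, so its reads may be shared. The FPKM ratio of Cemip to Cemip2 was 2.48, 1.38 and 2.84 in knockdown and 4.84, 2.10 and 7.19 in control libraries, lower in knockdown in every pair while the groups overlapped.

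Hyal1 and Hyal2 encode hyaluronidases, Hyal1 the acid-active enzyme of lysosomes and Hyal2 a form anchored at the cell surface. Hyal1 was at 4.22, 7.57 and 4.05 CPM in knockdown and 5.33, 8.25 and 7.50 CPM in control libraries, with the number 2 library highest in each group. Its log2 fold change was -0.41 ± 0.30 (SE), and -0.33, -0.12 and -0.87 by pair. Leaving out a knockdown library gave -0.76 without library 2, -0.27 without library 1 and -0.25 without library 3, and with the block it was -0.44, or -0.22 without pair 3. The span of Hyal1 overlaps those of Hyal3 and Naa80 in RefSeq, so its reads may be shared with theirs. Hyal2 was at 40.7, 35.5 and 46.7 CPM in knockdown and 33.8, 37.9 and 41.0 CPM in control libraries. The log2 fold change of Hyal2 was 0.13 ± 0.12 (SE), and pair 2 went the other way, at -0.09. It was 0.023 without knockdown library 3, 0.052 without control library 1, 0.22 without knockdown library 2, 0.19 without control library 3 and 0.24 with total count scaling.

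Set against each other per length, synthase and breakdown RNA shifted within each pair. The summed FPKM of Has1, Has2 and Has3 was 0.890, 1.17 and 0.693 times that of Cemip, Cemip2, Hyal1 and Hyal2 in knockdown libraries 1 to 3. The same ratio was 0.586, 0.865 and 0.288 in control libraries 1 to 3. It was higher in the knockdown library of all 3 pairs, yet control library 2 lay above knockdown library 3. The FPKM ratio of Has2 to Cemip alone was 2.87, 6.24 and 2.35 in knockdown and 1.10, 3.19 and 0.554 in control libraries, and control library 2 lay above knockdown libraries 1 and 3. Has2 was higher and Cemip lower in every pair, so a higher ratio of Has2 to Cemip in every pair followed from those directions. These ratios concern RNA and not enzyme activity or hyaluronan.

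**Figure D2:**
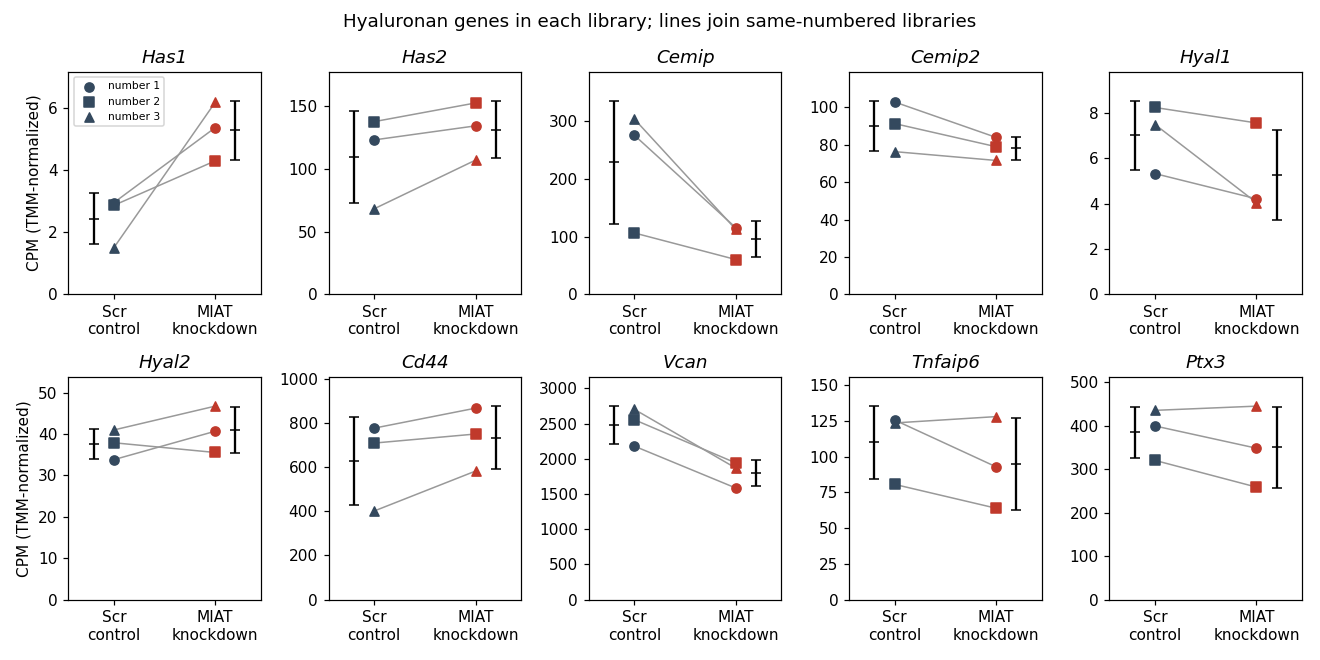
CPM of each gene in the 3 Scr control and 3 MIAT knockdown libraries, with lines joining same-numbered libraries and bars giving the mean ± SD of each group. All 3 lines fall for Cemip, Cemip2, Hyal1 and Vcan and all 3 climb for Has1, Has2 and Cd44, while Hyal2, Tnfaip6 and Ptx3 have lines in both directions.

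Cd44 encodes the main cell-surface receptor of hyaluronan. It was at 867, 750 and 582 CPM in knockdown and 777, 709 and 401 CPM in control libraries, and the number 3 library was lowest in both groups. The groups overlapped, with a log2 fold change of 0.22 ± 0.26 (SE). By pair the difference was 0.16, 0.08 and 0.54, and it was 0.086 without knockdown library 1. Without control library 3 it was -0.02, so the direction between the groups rested on that library, while every pair was higher.

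Vcan showed the most even difference of the list by pair. Versican binds hyaluronan through its link module and, with it, forms the pericellular coat of migrating smooth muscle cells. Vcan was at 1584, 1940 and 1867 CPM in knockdown and 2178, 2554 and 2701 CPM in control libraries, and the groups did not overlap. Its level was 1.38-fold lower, a log2 fold change of -0.46 ± 0.13 (SE), and -0.46, -0.40 and -0.53 by pair, lower in 3 of 3. The log2 fold change was -0.38 without knockdown library 1, -0.55 without control library 1 and -0.35 with total count scaling. The FPKM ratio of Cd44 to Vcan was 1.29, 0.912 and 0.735 in knockdown libraries and 0.841, 0.655 and 0.350 in control libraries, and the groups overlapped. Cd44 was higher and Vcan lower in every pair, so a higher ratio in every pair followed from those directions.

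Tnfaip6 encodes TSG-6, which transfers protein heavy chains onto hyaluronan, and Ptx3 encodes pentraxin 3, which joins in cross-linking that modified hyaluronan. Both are induced by inflammatory signals. Tnfaip6 was at 92.9, 63.9 and 128 CPM in knockdown and 126, 80.6 and 124 CPM in control libraries. Its log2 fold change was -0.21 ± 0.27 (SE), and -0.43, -0.33 and 0.05 by pair. Ptx3 was at 348, 259 and 445 CPM in knockdown and 399, 320 and 435 CPM in control libraries. Its log2 fold change was -0.13 ± 0.21 (SE), and -0.20, -0.31 and 0.03 by pair. Both genes thus were lower in pairs 1 and 2 and nearly equal in pair 3, and both were lowest in the number 2 library of each group. Without knockdown library 2 the log2 fold changes were 0.0092 for Tnfaip6 and 0.045 for Ptx3, so neither direction held. Ptx3 lies within the span of Veph1 in RefSeq, and with no strand setting given their reads may be shared.

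**Figure D3:**
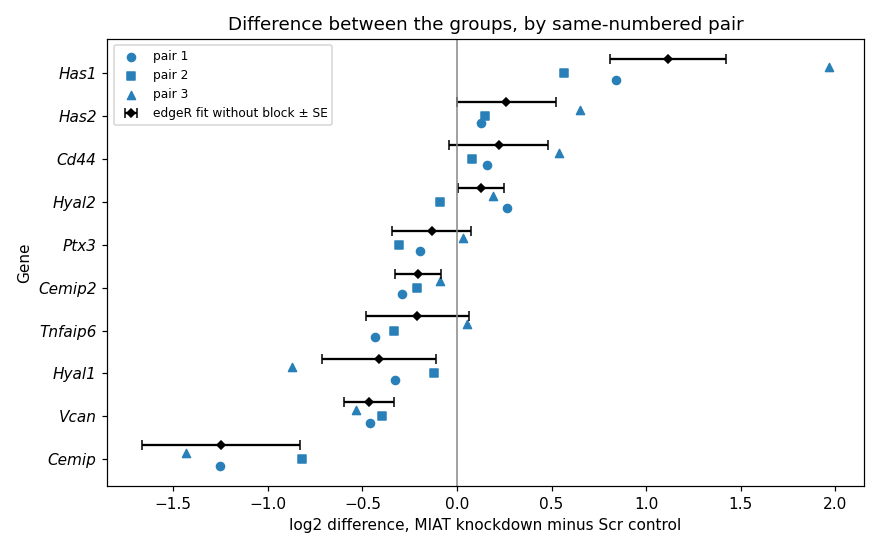
log2 difference of MIAT knockdown minus Scr control for each gene, as 3 points for the same-numbered pairs and a diamond with its standard error for the edgeR fit of all 6 libraries without the replicate block. Cemip at -1.25 and Has1 at 1.12 lie farthest from 0, and the 3 Vcan pairs lie close together at -0.53 to -0.40.

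Over the list, the median log2 fold change was -0.17, against -0.01 over all 13423 genes tested, and the median absolute log2 fold change was 0.24 against 0.18. The list median was 0.027 without knockdown library 2, so its direction rested on that library, and -0.081 without control library 3. With total count scaling it was -0.062, against 0.094 over all genes, and -0.063 on log2(FPKM + 1). By pair, 3 genes were higher in 3 of 3 pairs (28% of all tested genes were) and 4 were lower in 3 of 3 (28.5%). The groups did not overlap in Has1 upward, against 14.2% of all genes, and in Vcan downward, against 11.8%. Fitted without the replicate number as a block, edgeR's quasi-likelihood test placed 0 of the 10 genes under an adjusted p of 0.05, and 0% of all genes. At an unadjusted p under 0.05 it listed 3 of the 10, against 19.2% of all genes. limma-voom also called 0, and DESeq2 called Has1 and Vcan (5.42% of all genes). With the block, edgeR called Has1 as higher, against 10.5% of all genes, and Cemip and Vcan as lower, against 11.1%. With the block DESeq2 called the same 3 genes (12.1% of all genes). In edgeR with the block, the Has1 call ended without pair 2. The list was chosen on this contrast, so nothing is read from these counts.

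The genes also varied between libraries of 1 group, in part by number. The same library number was lowest in both groups for 7 of the 10 genes. The share of all tested genes for which this held was not computed, so nothing is read from that count. Both the lowest and the highest number matched for Has2, Cemip2, Cd44 and Ptx3, 4 of 10 against 36.5% of all tested genes. Within the control group Cemip spanned 2.86-fold, Has2 2.02-fold, Has1 1.97-fold and Cd44 1.94-fold, while Hyal2 spanned 1.21-fold and Vcan 1.24-fold. Within the knockdown group Tnfaip6 had the widest span of the list, at 2.003-fold, and Cemip2 the narrowest, at 1.17-fold. Scaling by total counts in place of TMM shifted log2 fold changes upward by 0.11 at the median of all genes, and under that scaling every gene of the list kept its direction.

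Genes with the nearest profile over the 6 libraries were sought among 10477 others with a mean of at least 5 CPM, by the root mean square difference of mean-centred log2 CPM. For Cemip, whose own profile had a root mean square of 0.82, the nearest were the potassium channel gene Kcnj2 at 0.26, Cyp4b1 at 0.30, Sgip1 at 0.33 and the tenascin gene Tnn at 0.33. Tnn was at 78.8 ± 29.4 CPM in knockdown and 161 ± 97.0 CPM in control libraries. For Has2, with a profile of 0.38, the nearest were the uncharacterized LOC120102230 at 0.076, Mical2 at 0.089, the RNA polymerase I subunit gene Polr1b at 0.095 and Dnah17 at 0.096. A distance over 6 libraries is a description of likeness in these samples.

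Of 54 other genes of the hyaluronan pathway, 50 were in the table and 38 passed the low-count filter. This list was also drawn up with earlier results of these data known. The shares and adjusted p-values given for it therefore describe these libraries and are not independent evidence. In the words used for them, rose and fell mean an adjusted p under 0.05 in edgeR's quasi-likelihood test with the replicate block. With the block 5 rose and 14 fell, 13.2% and 36.8% of the 38 against 10.5% and 11.1% of all genes, and 19 did not pass. Their median log2 fold change with the block was -0.15, against -0.01 over all genes. Every knockdown library lay above every control library in 5 of the 38 (13.2%), against 14.2% of all genes. Every one lay below in 7 (18.4%), against 11.8%. Without the block edgeR called 0 of the 38, and 13 (34.2%) were at an unadjusted p under 0.05, against 19.2% of all genes. Also without it, DESeq2 called 5 of the 38, against 5.42% of all genes, and limma-voom 0. Scaling by total counts with the block turned the split into 9 higher and 9 lower of the 38. Over all 13423 genes tested, that setting called 2822 higher and 819 lower. The balance of directions is thus relative to TMM scaling, in the list and over all genes alike. The fibroblast and adventitial markers moved with these falls, with 4 of the 5 tested lower with the block. Of the 6 smooth muscle markers, 2 were lower with the block (Myh11 and Lmod1) and 0 higher. The part of either set of markers was not tested.

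Of the versican partners and cleavers, 7 of 8 tested genes fell, 0 rose and 1 did not pass. Of the 7 calls, 2 were kept without pair 2, 5 without pair 1, 7 without pair 3, 6 with total count scaling and 5 in DESeq2, each with the block. ADAMTS proteases cut versican, and fibrillin and fibulins bind it. Adamts5 was at 21.1, 28.3 and 45.3 CPM in knockdown and at 28.9, 37.3 and 113 CPM in control libraries, with control library 3 far above the rest. It fell by a log2 fold change of 0.76 (standard error 0.16, edgeR adjusted p = 0.0144), lower in 3 of 3 pairs though the groups overlapped. The log2 fold change was -0.43 with the block without pair 3. Without the block it was -0.92, and -0.068 without control library 3, so the size rested on that library. Adamts9 fell 1.53-fold, from 14.9 ± 2.65 to 9.66 ± 1.32 CPM (edgeR adjusted p = 0.00876), a call that ended without pair 2. Fbn1, which encodes fibrillin 1, fell from 793 ± 164 to 539 ± 29.7 CPM (edgeR adjusted p = 0.0101), without overlap of the groups. Its log2 fold change of -0.54 with the block was -0.35 without pair 3. The Fbn1 and Adamts5 calls did not pass with the block in DESeq2 (adjusted p = 0.0888 and 0.0847).

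The precursor enzymes, which make the nucleotide sugars that the synthases use, gave 1 rise, 1 fall and 5 genes that did not pass. Gfpt1, which starts the hexosamine pathway, fell 1.28-fold (log2 fold change -0.35, edgeR adjusted p = 0.00909), lower in 3 of 3 pairs. Without the block its log2 fold change was -0.34, and -0.22 without knockdown library 3. Gnpnat1, a later enzyme of that pathway, rose 1.21-fold (edgeR adjusted p = 0.0324) without overlap, a call that ended without pair 1, without pair 2 and in DESeq2 with the block. Abcc5, a membrane transporter that has been linked to hyaluronan export, fell from 91.5 ± 7.26 to 63.3 ± 4.63 CPM (edgeR adjusted p = 0.00175), without overlap and in 3 of 3 pairs. DESeq2 called Abcc5 without the block as well.

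Of the other breakdown enzymes, 2 of 4 tested genes fell and 2 did not pass. Hexa, which encodes a lysosomal hexosaminidase subunit, fell 1.20-fold and Gusb, the lysosomal beta-glucuronidase, 1.18-fold (edgeR adjusted p = 0.0162 and 0.0262), each lower in 3 of 3 pairs. Without the block, the log2 fold change of Hexa was -0.26, and -0.15 without control library 3. Both calls ended with total count scaling and without pair 2, and that of Gusb also without pair 1 and in DESeq2 with the block.

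Of the other receptors, 2 of 5 tested genes rose and 3 did not pass. Hmmr, which encodes the hyaluronan-mediated motility receptor RHAMM, also a protein of the mitotic spindle, rose from 33.4 ± 4.98 to 48.2 ± 5.43 CPM (edgeR adjusted p = 0.00779). Every knockdown library was above every control library for Hmmr. Stab1, the scavenger receptor stabilin 1, rose from 0.747 ± 0.423 to 2.31 ± 0.483 CPM (edgeR adjusted p = 0.0199), a low level, and the call ended without pair 1 and without pair 2. The receptors Lyve1 and Stab2 did not pass the low-count filter.

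CD44 is tied to the cytoskeleton by ezrin, radixin and moesin, and it is shed from the surface by MMP14, ADAM10 and ADAM17. Among these 6 genes 1 rose, 2 fell and 3 did not pass. Ezr, which encodes ezrin, rose 1.35-fold (edgeR adjusted p = 0.00778). Mmp14 fell from 686 ± 54.2 to 513 ± 52.0 CPM and Adam10 from 95.3 ± 4.03 to 82.1 ± 2.08 CPM (edgeR adjusted p = 0.00299 and 0.0357). None of the 3 genes overlapped between the groups, which held upward for 14.2% and downward for 11.8% of all genes. The Adam10 call ended without any 1 of the 3 pairs, with total count scaling and in DESeq2 with the block.

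Hapln3, a hyaluronan and proteoglycan link protein gene, fell from 14.2 ± 2.13 to 10.4 ± 1.23 CPM (edgeR adjusted p = 0.0279), and the other 2 tested genes of the link-module group did not pass. The Hapln3 call ended without pair 1, without pair 2, with total count scaling and in DESeq2 with the block. Habp4, named for hyaluronan binding and encoding an intracellular RNA-binding protein, rose from 20.6 ± 2.26 to 30.2 ± 1.48 CPM (edgeR adjusted p = 0.00397), without overlap. The other 2 tested genes of the heavy chains and other binders did not pass.

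**Figure D4:**
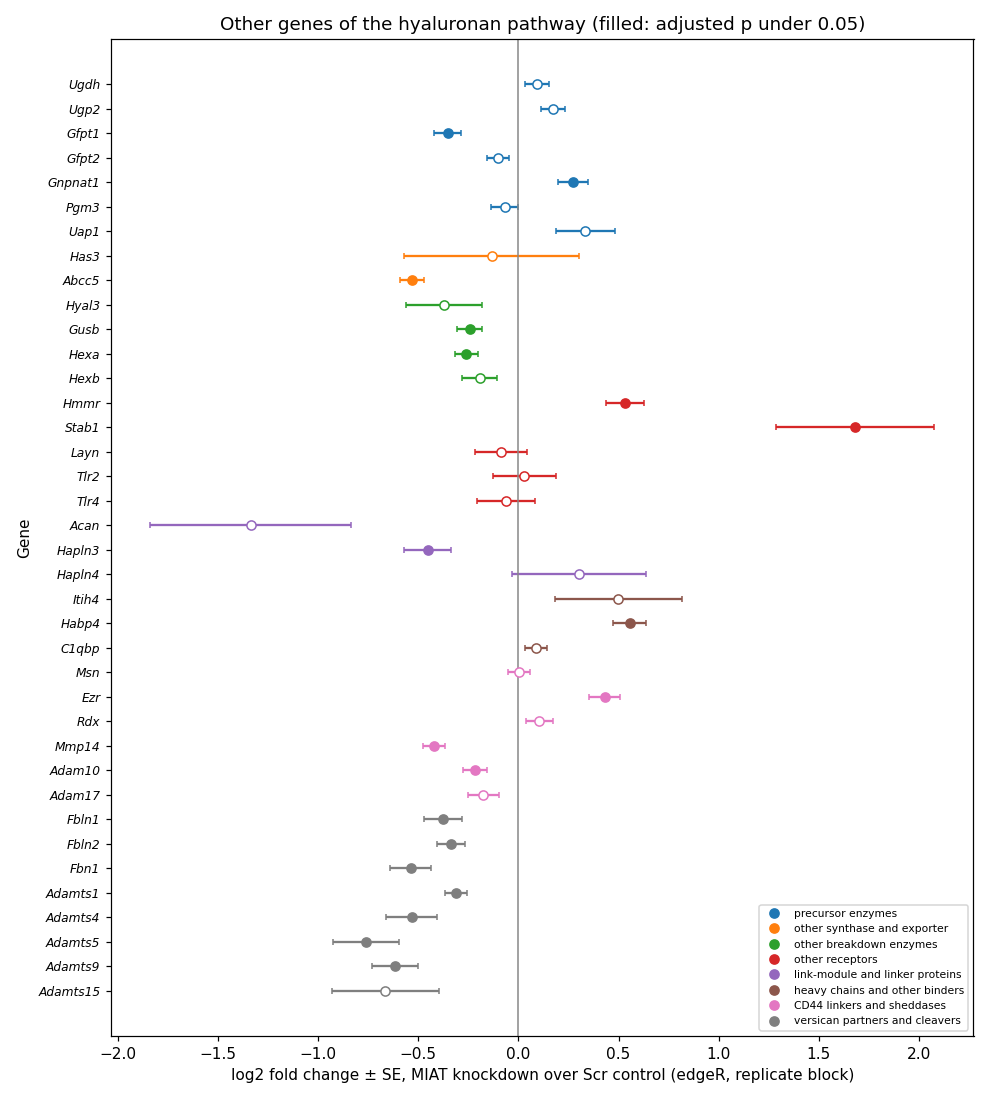
log2 fold change ± standard error of MIAT knockdown over Scr control for the 38 tested genes of the hyaluronan pathway outside the list of 10, from the edgeR fit with the replicate block, coloured by group and filled where the adjusted p was under 0.05. All 8 versican partners and cleavers lie left of 0, and Hmmr, Stab1, Habp4, Ezr and Gnpnat1 are the 5 filled points to the right.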

How the data were processed

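Per the deposited tables, the authors gave each gene symbol a count, unnormalized, and an FPKM value. Every FPKM above 0 (100%) could be rebuilt from the count, 1 gene length and the library total within a relative tolerance of 1e-06. For aligner, counter, strand setting and build, nothing is given in the sources used here. Counts were filtered with filterByExpr, scaled by TMM and tested with edgeR 4.0.16 (glmQLFit, glmQLFTest) under R 4.3.3, with Benjamini-Hochberg adjustment over 13423 genes at 0.05. Standard errors are the absolute log2 fold change over the root of the F statistic. Pair differences are log2 CPM with a prior count of 2. DESeq2 1.42.0 and limma 3.58.1 served as alternatives. The fits were tested on simulated data.

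The 10 genes, the pathway lists and the tests were chosen with earlier results of these data known, and the promoter motifs and the ratios between genes after the values were seen. Pathway genes are named by a rule: of the genes called with the block in each group, up to 3 that changed most. After removal of group means, same-numbered libraries correlated at 0.68, 0.52 and 0.58, and others at -0.56 to -0.05, so the numbers were taken as pairs. This rests on the data and the shared numbers, not on a statement in the labels. Promoter sequences come from RefSeq, assembly GRCr8.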

Additional observations from a re-analysis of the deposited data

How the results depend on the processing

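The median log2 fold change of the 10 genes was -0.17 and ran from -0.23 (without control library 2) to 0.027 (without knockdown library 2) when a library was left out. Cd44 ran from -0.021 (without control library 3) to 0.40, Tnfaip6 from -0.49 to 0.0092 and Ptx3 from -0.34 to 0.045, the last 2 changing sign without knockdown library 2. The other 7 genes kept their sign in all 19 alternatives. The number of genes called was 0 in edgeR without the replicate block, 2898 with it, 699 in DESeq2, 1590 in DESeq2 with the block and 3641 with total counts as scaling and the block (2822 higher, 819 lower). With the block it was 1195 when pair 1 was left out, 736 for pair 2 and 4124 for pair 3, and without the block it was 0 whichever library was left out. Of the 38 pathway genes, 0 were called without the block, 19 with it, 5 in DESeq2, 13 in DESeq2 with the block and 18 with total counts and the block. With the block 12 were called when pair 1 was left out, 8 for pair 2 and 21 for pair 3. The limma fits (voom, log2(FPKM + 1) and log2(FPKM + 0.1)), other size factors and no low-count filter called 0 genes. These were run without the block only. The cause of the calls gained or lost without a pair was not tested. Has1 rests on 28 to 119 counts per library, which limits its precision.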
